A study of Homo sapiens with 6 samples.

Results

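Chromosome 19 carries the densest collection of zinc finger genes in the human genome. The genes described here were those whose name is ZNF followed by a number, with or without 1 letter, and whose exons all lie on chromosome 19 in the deposited count table. The rule used the name and the position and no measured value, and it gave 251 of the 33451 listed genes. MDA-MB-453, an established human breast cancer cell line, was cultured for 5 days either with 100 nM 25(OH)D, the main circulating metabolite of vitamin D, or with its alcohol solvent as the control. Both groups were cells of the same line in serum-containing medium, with no genetic change named in the labels, so the comparison addresses what 25(OH)D changes in the mRNA of this line. Each group held 3 mRNA libraries. The study's methods call the libraries biological replicates, and the labels give a replicate number without saying what was replicated, so the p-values measure the spread between these libraries. A single cell line cannot stand for breast cancer at large.

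Most of the ZNF genes on this chromosome encode proteins with a long array of C2H2 zinc fingers, which reads DNA, and many also carry a KRAB domain, which recruits the corepressor TRIM28. TRIM28 brings the histone methyltransferase SETDB1 and HP1 proteins, and the complex silences retrotransposons and some genes. The family grew by repeated local duplication, so that related genes stand side by side in clusters along the chromosome. Individual members are mostly weakly transcribed.

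The libraries held 33268860 to 40928176 counts, and a count of 3 in a library was worth 0.0720 to 0.0920 CPM, counts relative to a library total that edgeR's TMM factors had adjusted. Mitochondrially encoded genes took 7.85% to 7.99% of the counts in control libraries and 8.89% to 9.24% in 25(OH)D libraries, and without these genes 41 ZNF members fell and 5 rose, against 43 and 5 with them. All 10 markers of luminal or apocrine breast cancer cells were above 1 RPKM, a level per gene length and library total, in every library, and their summed level was 3538 to 3679 RPKM in control and 2766 to 2866 RPKM in 25(OH)D. Most of this sum was XBP1, which ran from 1718 to 2711 RPKM over the 6 libraries, so the sum mainly follows that gene. The sums were at most 2.44 RPKM for 6 basal or mesenchymal markers, 4.03 RPKM for 4 fibroblast markers, almost all of it COL1A1, and 0.0546 RPKM for the endothelial markers. The sum of 5 leukocyte markers was 2.12 to 2.80 RPKM in control and 5.99 to 8.71 RPKM in 25(OH)D, nearly all of it CD68, whereas PTPRC, which defines leukocytes, reached at most 0.02 RPKM. The summed level of the receptors VDR, ESR1 and PGR, nearly all of it VDR, was 14.3 to 14.7 RPKM in control and 21.9 to 24.0 RPKM in 25(OH)D.

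The chromosome 19 ZNF genes were, as a group, lower in cells cultured with 25(OH)D. Their summed counts took 0.251% to 0.254% of the counts of each control library and 0.219% to 0.224% of each 25(OH)D library, so that the groups did not overlap. This was not particular to them. ZNF-named genes on other chromosomes took 0.619% to 0.631% in control and 0.576% to 0.582% in 25(OH)D. The other genes of chromosome 19 took 4.60% to 4.73% in control and 4.41% to 4.45% in 25(OH)D. Of the 251 members, 215 passed the low-count filter and were tested. The other 36 reached at most 22 counts in any library, and 22 of them had 3 counts or fewer in every library. In bulk RNA, fewer cells of a kind and less RNA per cell cannot be told apart.

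Among the 215 tested members, 43 fell and 5 rose at an adjusted p under 0.05 in the quasi-likelihood test of edgeR, with the Benjamini-Hochberg method applied over all 18183 genes tested. A call in either direction was made for 33.8% of all genes. The share that fell was 20%, against 16.5% of all genes tested, and the share that rose was 2.33%, against 17.3%. The gap to all genes was wider for rises than for falls. The fitted log2 fold change was below 0 in 162 members, or 75.3%, against 51.3% of all genes. Every 25(OH)D library lay below every control library in 73 members (34.0%, against 22.9% of all genes) and above in 11 members (5.12%, against 22.8%). The median log2 fold change was -0.16 with quartiles of -0.31 and -0.01, against a median of -0.01 with quartiles of -0.23 and 0.22 over all genes. The changes were small in size. Only ZNF725P passed an absolute log2 fold change over 1 with an unadjusted p under 0.05, as a fall, where 2.63% of all genes fell and 4.02% rose.

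A low share of rises was seen in each of 3 classes of abundance. In the 39 tested members with a mean under 100 counts, 3 fell and 0 rose, and in all genes of that class 6.77% fell and 7.28% rose. Of 120 members with 100 to 500 counts, 21 fell and 2 rose (17.5% and 1.67%, against 14.5% and 14% of all genes in the class). Of 56 members with 500 counts or more, 19 fell and 3 rose (33.9% and 5.36%, against 24.2% and 25.9%). The members were less abundant than other genes per length, with a median of 1.47 RPKM against 2.94 RPKM over all genes tested. On the plus strand 23 of 118 tested members fell, and on the minus strand 20 of 97.

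ZNF-named genes on the other chromosomes were lower too. Of the 237 tested, 56 fell (23.6%) and 17 rose (7.17%), with a median log2 fold change of -0.11. The other 1118 tested genes of chromosome 19 stood nearer to all genes, with 15.7% falling, 13.3% rising and a median of -0.04. In the plot of shares and medians by gene set, the 2 ZNF sets lie to the left of the others. No test of the difference between these sets was made, and the values describe them only.

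**Figure D1:**
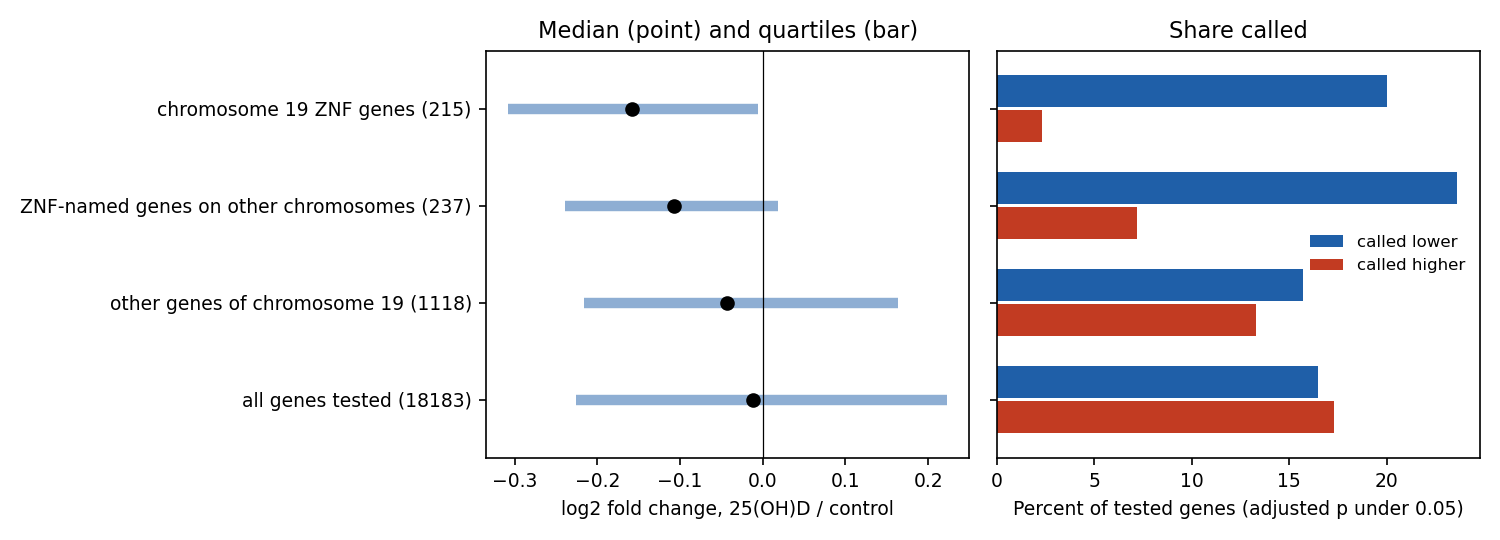
Median log2 fold change of 25(OH)D against control with its quartiles (left) and percent of tested genes called lower or higher at an adjusted p under 0.05 (right), for 4 gene sets with the number tested in parentheses, where all genes tested include the other 3 sets. The chromosome 19 ZNF genes have a median of -0.16 and 2.33% called higher, against -0.01 and 17.3% over all genes.

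The position along the chromosome was examined by dividing the members into 15 clusters wherever the distance to the next member exceeded 1 Mb. Of the 43 falls, 13 lay in each of 2 clusters. They made up 46.4% and 37.1% of the tested members there, against 16.5% of all genes tested. In the pericentromeric cluster of the short arm, chr19:19668796-24129961 on GRCh38, 13 of 28 tested members fell and 0 rose, with a median log2 fold change of -0.22. In the cluster at chr19:51571298-53580269 on the long arm, 13 of 35 tested members fell and 1 rose, with a median of -0.23. The largest cluster, at chr19:55476332-58481230 near the end of the long arm, had 3 falls and 0 rises among 54 tested members. Its median was -0.16, and 43 of its members were fitted below 0, most of them without passing the test.

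The other clusters held fewer calls, and the shares of falls are set against 16.5% of all genes. At chr19:36182060-37817300, 4 of 25 tested members fell (16%) and 0 rose (median -0.13). At chr19:7069444-9793180, 3 of 14 fell (21.4%) and 0 rose (median -0.19). At chr19:43525497-45076588, 3 of 24 fell (12.5%) and 1 rose (median -0.04). The cluster at chr19:11483427-12640098 held 3 of the 5 rises among its 17 tested members, a share of 17.6% that was near the 17.3% of all genes. It also held 1 fall (5.88%), 9 of its 17 members were fitted below 0, and its median was -0.07.

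**Figure D2:**
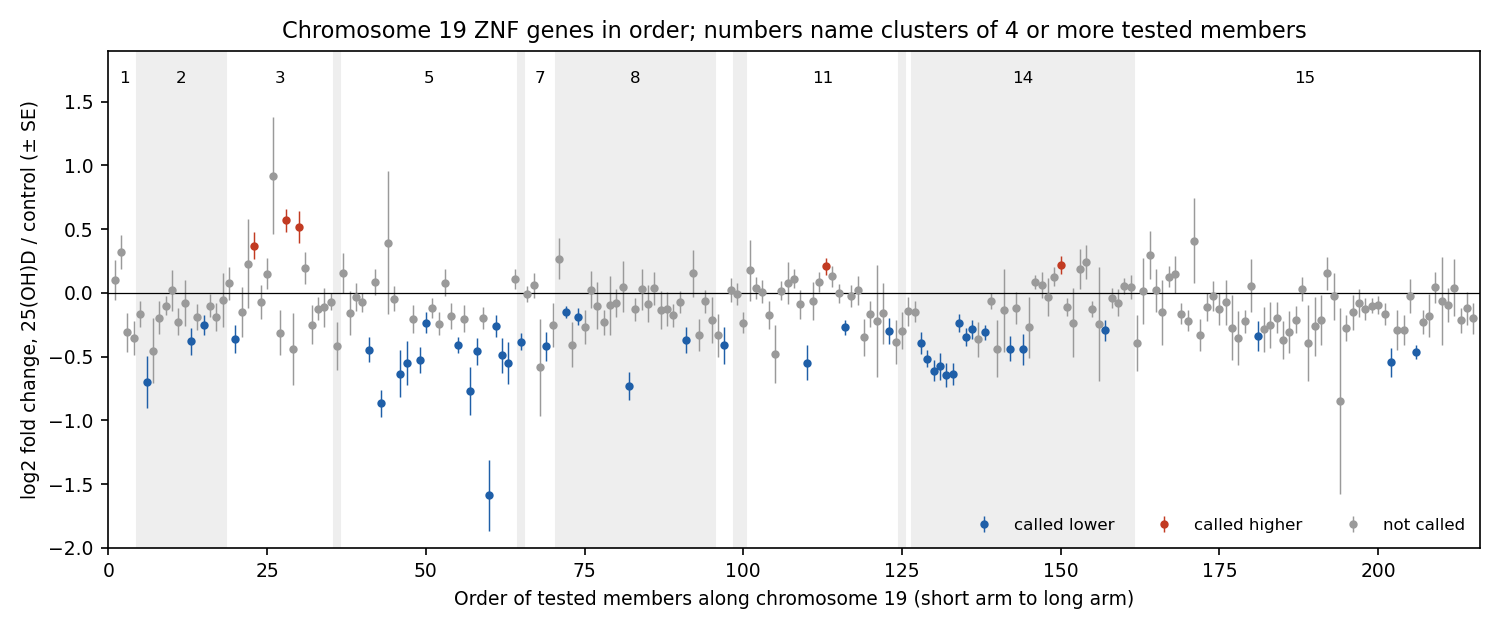
Log2 fold change of 25(OH)D against control (points, with standard errors as bars) of the 215 tested members in their order along chromosome 19, with alternating shading for the clusters and numbers on clusters with 4 or more tested members. Clusters 5 and 14 hold 13 falls each, and 3 of the 5 rises lie in cluster 3.

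Neighbouring members moved together only weakly over the chromosome as a whole. Across 200 pairs of neighbours within a cluster, Pearson's r of their log2 fold changes was 0.14 and Spearman's rho was 0.19. Without pairs that share exon bases they were 0.13 and 0.19 over 186 pairs, and among members with a mean of at least 100 counts 0.28 and 0.25 over 161 pairs. These are correlations across genes measured in the same 6 libraries, and genes are not independent replicates. Both neighbours fell in 14 of the 200 pairs, where 20% of the tested members fell. These pairs include every pair within the stretch of 9 members described next, which was picked for its falls. No share of such pairs was computed over all genes.

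The longest unbroken stretch of falls lay in the long-arm cluster at chr19:51871302-52139922, over 268.6 kb. It held 9 tested members in a row, which were ZNF577, ZNF649, ZNF613, ZNF350, ZNF615, ZNF614, ZNF432, ZNF841 and ZNF616, with log2 fold changes between -0.64 and -0.24. The stretch was chosen after the values were seen, as were ZNF577, ZNF432 and ZNF616 within it and ZNF175, ZNF836 and ZNF766 beside it. The promoters of ZNF613 and ZNF615, which stand apart on opposite strands and share no exon bases with another listed gene, are shown because they hold the letters AAGATGGC, the core that the factor YY1 is known to bind. Capitals mark these letters or their reverse complement. The sequences are from RefSeq on GRCh38.p14, cover 250 bases before and 50 bases after the annotated start, and are read 5′ to 3′ along the gene's strand, chr19:51927222-51927521 (plus) and chr19:52008162-52008461 (minus).
ZNF613: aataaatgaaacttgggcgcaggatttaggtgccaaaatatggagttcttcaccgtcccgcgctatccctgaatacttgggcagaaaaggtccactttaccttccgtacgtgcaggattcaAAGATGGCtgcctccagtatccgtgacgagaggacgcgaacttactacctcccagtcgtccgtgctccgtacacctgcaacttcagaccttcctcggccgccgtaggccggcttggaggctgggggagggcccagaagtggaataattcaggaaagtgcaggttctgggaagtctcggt
ZNF615: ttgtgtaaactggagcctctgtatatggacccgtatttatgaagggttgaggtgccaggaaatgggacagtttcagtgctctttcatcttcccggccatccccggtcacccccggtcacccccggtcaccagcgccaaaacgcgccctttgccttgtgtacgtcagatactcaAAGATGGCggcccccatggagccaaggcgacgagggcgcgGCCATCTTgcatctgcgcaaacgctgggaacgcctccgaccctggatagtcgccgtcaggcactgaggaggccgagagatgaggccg
The match began 129 bases before the start in ZNF613, and the first of 2 matches began 77 bases before the start in ZNF615. In this cluster 4 of 27 tested members with a promoter entry held these letters, and they were ZNF613, ZNF615, ZNF614 and ZNF432. All 4 belong to the stretch, which was defined by its falls, so that they fell says nothing about the letters. In the whole cluster 13 of 35 tested members fell. Over all tested members with an entry, 14 of 185 (7.57%) held them, against 5.31% of the 10472 tested genes with an entry and 2.89% of all 35116 promoters in the table. Of the 14, 7 fell and 0 rose, where 39 of the 185 fell and 5 rose. The letters were picked after the promoter sequences of members had been read, and a match is a description and not a binding site.

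ZNF649, whose product is known to repress reporters of serum response and AP-1 elements, had the smallest p of the stretch. Its level was 29.2, 31.3 and 32 CPM in the control libraries and 22.1, 20.8 and 21.8 CPM in the 25(OH)D libraries. The groups did not overlap and every 25(OH)D library was well below the controls. The fitted log2 fold change was -0.52 ± 0.07 (SE, n = 3 per group), with an adjusted p of 3.15e-05 in edgeR's quasi-likelihood test. Its exons overlap the antisense gene ZNF649-AS1 on the other strand by 1168 bases, and whether the counting used strand is not given in the sources used here.

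ZNF613 was at 17.0, 16.5 and 15.6 CPM in control and at 10.6, 11.2 and 10.4 CPM in 25(OH)D. ZNF350, also called ZBRK1, a repressor known to bind BRCA1, was at 16, 18.1 and 16.5 CPM in control and at 13.3, 10.3 and 10.4 CPM in 25(OH)D. In both genes the groups were apart, although 1 of the 25(OH)D libraries of ZNF350 stood nearer to the controls. The log2 fold changes were -0.61 ± 0.08 and -0.58 ± 0.11 (SE, n = 3 per group), with adjusted p-values of 4.56e-05 and 6.50e-04 in edgeR's quasi-likelihood test.

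ZNF615 was at 15.8, 13.9 and 15.6 CPM in control and at 8.84, 10.5 and 9.69 CPM in 25(OH)D. Its neighbour ZNF614 was at 17.8, 16.3 and 16.8 CPM in control and at 11.9, 10.4 and 10.5 CPM in 25(OH)D. The 25(OH)D means were near 64% of the control means in both genes, with no overlap. The log2 fold change was -0.64 ± 0.10 in ZNF615 and -0.63 ± 0.09 in ZNF614 (SE, n = 3 per group), with adjusted p-values of 1.09e-04 and 5.15e-05 in edgeR's quasi-likelihood test.

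At the ends of the stretch the falls were smaller. ZNF577 fell by 0.39 on the log2 scale, ZNF841 by 0.35, ZNF616 by 0.29 and ZNF432 by 0.24, with adjusted p-values of 0.00263, 0.00163, 0.00992 and 0.0182 in edgeR's quasi-likelihood test. ZNF841 was among the most abundant members per length, at 7.91 ± 0.448 RPKM in control and 6.03 ± 0.439 RPKM in 25(OH)D (SD, n = 3). ZNF432 and ZNF841 share 433 exon bases on the same strand, ZNF577 shares 1281 with AC074141.1 and ZNF616 shares 330 with CTC-471J1.8, so the counts of these 4 genes are uncertain. In each of the 16 alternative fits 7 of the 9 genes passed the test, whereas ZNF432 passed it in 12 and ZNF616 in 14.

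The genes on both sides of the stretch moved less clearly. ZNF175 before it was at 20.9 to 24.5 CPM in control and 18.9 to 21.2 CPM in 25(OH)D, with overlapping groups and an adjusted p of 0.186 in edgeR's quasi-likelihood test. ZNF836 after it had a log2 fold change of -0.36 with groups that did not overlap and an adjusted p of 0.0584, and shares 3376 exon bases with CTC-471J1.8. ZNF766 further on fell by 0.31 on the log2 scale (adjusted p 0.00120), and ZNF480, among the most abundant members at 9.95 ± 0.289 RPKM in control and 9.24 ± 0.556 RPKM in 25(OH)D (SD, n = 3), did not pass the test (adjusted p 0.472).

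**Figure D3:**
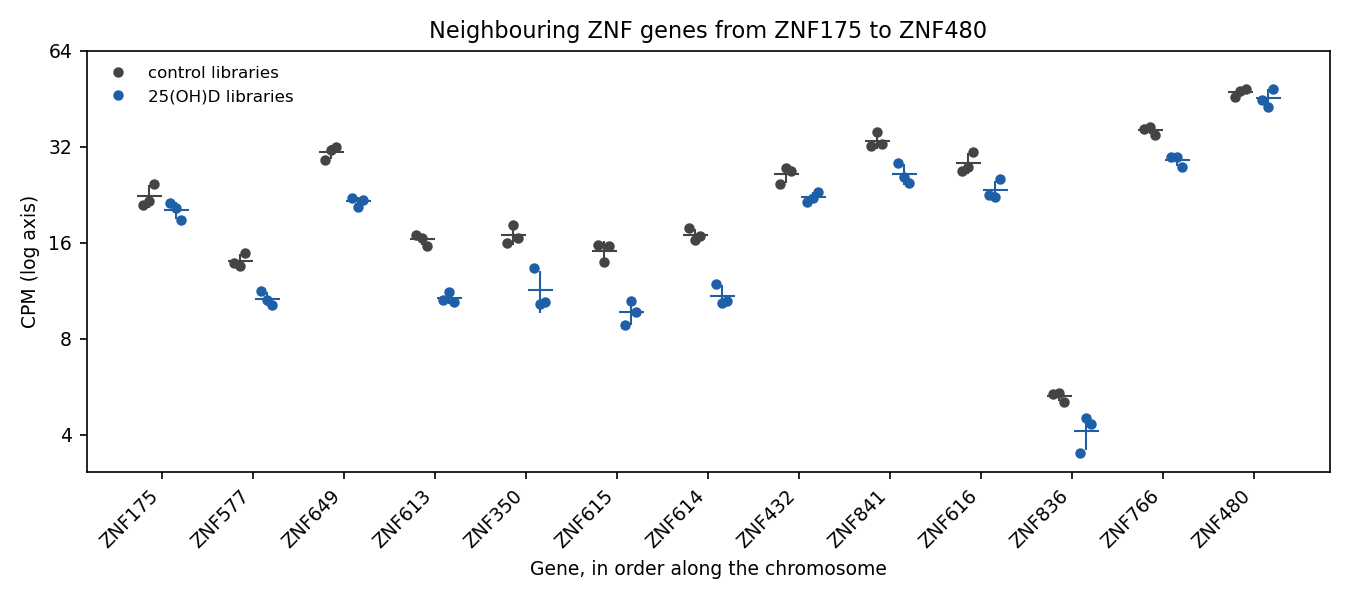
CPM on a log axis of 13 neighbouring tested members in chromosome order, 1 point per library, with the mean of 3 libraries and its SD as lines. From ZNF577 to ZNF616 every 25(OH)D library (blue) lies below every control library (grey), with ZNF649 at 29.2 to 32 CPM in control and 20.8 to 22.1 CPM in 25(OH)D, and the levels of ZNF480 overlap.

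Apart from ZNF766, 3 more members of this cluster fell beyond the stretch, and ZNF468 rose. It was at 19.4, 18.9 and 18 CPM in control and at 21.6, 21.4 and 22.8 CPM in 25(OH)D, a small difference with no overlap. The log2 fold change was 0.22 ± 0.07 (SE, n = 3 per group) with an adjusted p of 0.0251 in edgeR's quasi-likelihood test. ZNF468 is uncertain, since 51.3% of its 100-base transcript stretches occur in other genes, with ZNF320 holding the most, and it shares 290 exon bases with ZNF28. ZNF761, at 8.14 ± 0.275 RPKM in control and 8.20 ± 0.579 RPKM in 25(OH)D (SD, n = 3), and the imprinted gene ZNF331 (log2 fold change 0.04, adjusted p 0.755) did not pass the test.

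The pericentromeric cluster is known for genes that expanded in primates, among them ZNF91, which silences SVA retrotransposons, and ZNF93, which silences LINE-1 elements. The promoters of ZNF90 and ZNF93, which fell, and of ZNF44 and ZNF799, which rose, are shown because all 4 hold the letters TTCTGTCANTCAG, marked in capitals. The sequences are from RefSeq on GRCh38.p14 and lie at chr19:20077750-20078049 (plus), chr19:19900696-19900995 (plus), chr19:12294834-12295133 (minus) and chr19:12401222-12401521 (minus).
ZNF90: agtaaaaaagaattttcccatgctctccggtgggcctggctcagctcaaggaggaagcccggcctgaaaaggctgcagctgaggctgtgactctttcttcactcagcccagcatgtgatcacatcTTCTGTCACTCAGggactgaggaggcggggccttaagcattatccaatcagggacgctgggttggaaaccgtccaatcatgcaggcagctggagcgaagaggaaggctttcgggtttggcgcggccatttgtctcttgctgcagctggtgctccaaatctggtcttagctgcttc
ZNF93: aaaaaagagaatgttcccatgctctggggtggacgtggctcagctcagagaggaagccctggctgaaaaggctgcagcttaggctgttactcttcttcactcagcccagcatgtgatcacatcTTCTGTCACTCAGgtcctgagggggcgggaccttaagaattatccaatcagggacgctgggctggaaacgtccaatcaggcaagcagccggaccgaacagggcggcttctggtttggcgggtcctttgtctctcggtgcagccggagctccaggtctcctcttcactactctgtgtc
ZNF44: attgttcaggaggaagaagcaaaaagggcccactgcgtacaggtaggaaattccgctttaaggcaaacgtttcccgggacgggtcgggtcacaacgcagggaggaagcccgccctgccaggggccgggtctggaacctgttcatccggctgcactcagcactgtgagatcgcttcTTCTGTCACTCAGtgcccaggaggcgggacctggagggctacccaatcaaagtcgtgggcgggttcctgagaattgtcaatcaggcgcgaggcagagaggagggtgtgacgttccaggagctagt
ZNF799: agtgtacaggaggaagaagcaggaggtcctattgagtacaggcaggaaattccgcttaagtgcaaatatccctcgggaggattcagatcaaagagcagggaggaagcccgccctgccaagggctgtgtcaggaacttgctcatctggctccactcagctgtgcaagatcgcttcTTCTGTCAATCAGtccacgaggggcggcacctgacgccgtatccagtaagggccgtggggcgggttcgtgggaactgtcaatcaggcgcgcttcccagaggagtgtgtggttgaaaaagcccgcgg
The match began 125 bases before the start in ZNF90, 127 in ZNF93, 75 in ZNF44 and 76 in ZNF799. On either strand, 17 of the 185 tested members with an entry held these letters (9.19%), against 21 of the 10472 tested genes with an entry (0.201%) and 27 of all 35116 promoters in the table (0.0769%). All 17 were in these 2 clusters, with 12 of 22 in the pericentromeric cluster, of which 9 fell and 0 rose, and 5 of 14 in the other, of which 3 rose and 0 fell. Of all 22 members with an entry in the pericentromeric cluster 11 fell, and in the other cluster 3 of 17 tested members rose. Among the 168 members without the letters 30 fell and 2 rose. The same letters thus stood before genes called in opposite directions. The shorter letters CCAATCA, which contain a CCAAT box, stood in 22 of 22 and 12 of 14 of these promoters and in 24.3% of the 185 member promoters, against 9.26% of those of tested genes and 6.95% of the table. Both sets of letters were picked after the sequences had been read, and the matches are a description.

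ZNF90 had the smallest p in the pericentromeric cluster. It was at 9.34, 9.43 and 8.98 CPM in control and at 5.00, 5.22 and 5.00 CPM in 25(OH)D. The 2 groups were tight and far apart. Its log2 fold change was -0.87 ± 0.11 (SE, n = 3 per group) with an adjusted p of 1.74e-05 in edgeR's quasi-likelihood test. Its exons overlap CTC-260E6.2 on the same strand by 1372 bases, and 6.69% of its 100-base stretches occur elsewhere.

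ZNF725P, an unprocessed pseudogene, showed the largest fall of all tested members. It was at 1.94, 3.88 and 2.80 CPM in control and at 1.16, 0.832 and 0.859 CPM in 25(OH)D. The control libraries spread widely and still did not overlap with the others. The log2 fold change was -1.59 ± 0.28 (SE, n = 3 per group) with an adjusted p of 4.58e-04 in edgeR's quasi-likelihood test. It opened a stretch of 4 tested members that fell in a row, ZNF725P, ZNF675, ZNF681 and ZNF726, at chr19:23492428-23945159, of which ZNF675 and ZNF681 were chosen after their values were seen. ZNF725P passed the test in all 16 alternative fits, ZNF681 in 14, ZNF726 in 11 and ZNF675 in 10.

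ZNF726 was at 5.96 ± 1.24 CPM in control and 4.08 ± 0.486 CPM in 25(OH)D (SD, n = 3), with a log2 fold change of -0.55 and an adjusted p of 0.0172 in edgeR's quasi-likelihood test, and shares 1454 exon bases with CTB-92J24.3 on the other strand. ZNF257 went from 2.89 ± 0.302 to 1.69 ± 0.128 CPM (log2 fold change -0.77, adjusted p 0.00554) and ZNF66 from 3.6 ± 0.132 to 2.33 ± 0.503 CPM (-0.63, adjusted p 0.0156). In these 3 genes every 25(OH)D library was below every control library. ZNF675 was the only called member of the chromosome whose groups overlapped, at 25.6 ± 1.58 and 21.4 ± 2.35 CPM (SD, n = 3).

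Of the 2 retrotransposon silencers, ZNF93 passed the test in all 16 alternative fits and ZNF91 in 3. ZNF93 was at 11.6, 12.1 and 10.9 CPM in control and at 8.61, 9.17 and 7.60 CPM in 25(OH)D, with no overlap, and its log2 fold change was -0.44 ± 0.10 (SE, n = 3 per group) with an adjusted p of 0.00327 in edgeR's quasi-likelihood test. ZNF91 was at 26.9, 31.1 and 25.5 CPM in control and at 23.6, 26.6 and 22.4 CPM in 25(OH)D, with overlapping groups, a log2 fold change of -0.20 ± 0.09 and an adjusted p of 0.0947. ZNF91 passed the test with upper-quartile factors (adjusted p 0.0433), with library sizes alone (0.0487) and with the replicate number as a block (0.0358). The difference between the 2 genes was not tested. ZNF93 shares 414 exon bases with AC007204.2 on the same strand.

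The rises at chr19:11483427-12640098 were in ZNF44, ZNF799 and ZNF823, all on the minus strand. ZNF44 was at 11.8, 14 and 11.9 CPM in control and at 19.6, 17.5 and 18.9 CPM in 25(OH)D. Its 2 groups were clearly apart, and no tested member had a larger rise with an adjusted p under 0.05. The log2 fold change was 0.57 ± 0.09 (SE, n = 3 per group) with an adjusted p of 1.71e-04 in edgeR's quasi-likelihood test. Its exons overlap CTD-2666L21.1 on the other strand by 467 bases.

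ZNF799 was at 4.30, 5.57 and 4.86 CPM in control and at 6.88, 7.17 and 7.02 CPM in 25(OH)D. ZNF823 was at 7.92, 6.97 and 7.60 CPM in control and at 9.38, 9.17 and 10.5 CPM in 25(OH)D. Neither gene had overlapping groups, and the 25(OH)D libraries of ZNF799 were nearly equal. The log2 fold changes were 0.52 ± 0.13 and 0.37 ± 0.10 (SE, n = 3 per group), with adjusted p-values of 0.00554 and 0.0138 in edgeR's quasi-likelihood test. ZNF799 shares 1595 exon bases with CTD-3105H18.16, and 13.9% of its 100-base stretches occur in other genes. In the same cluster ZNF627 fell, from 9.48 ± 0.794 to 7.38 ± 0.599 CPM (SD, n = 3, log2 fold change -0.36, adjusted p 0.0202).

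**Figure D4:**
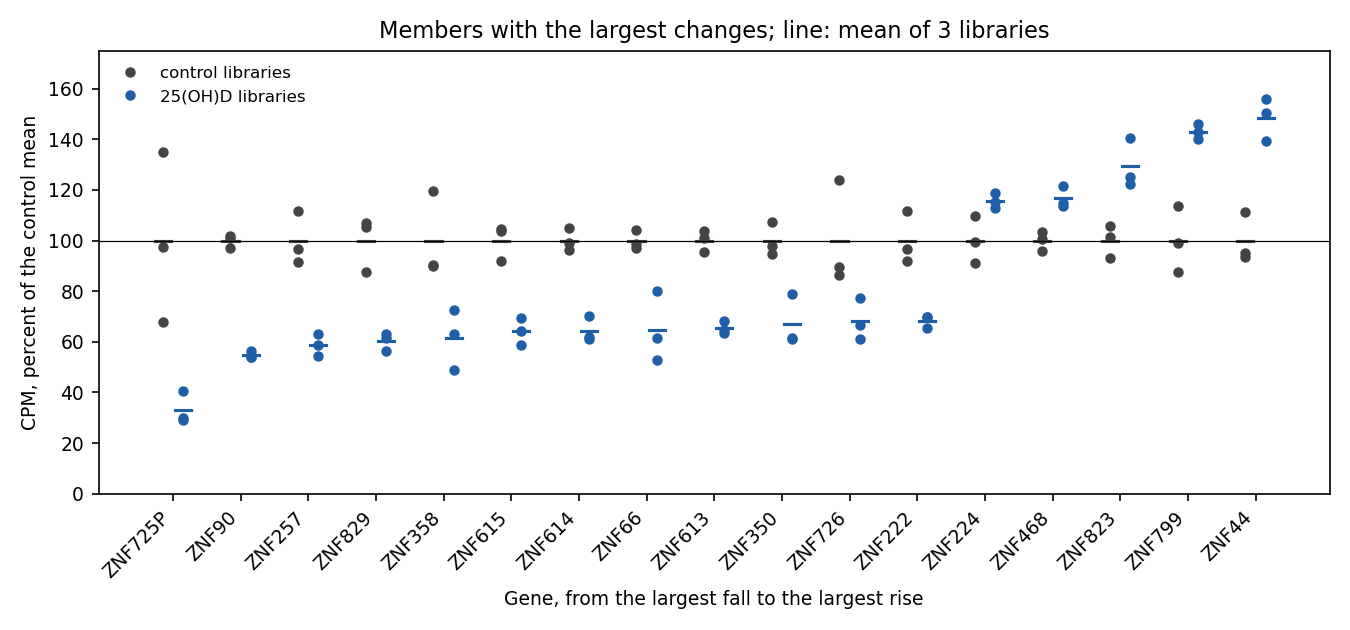
CPM of each library as a percent of the control mean for the 17 members with the largest falls and rises under the rule for named genes, with the mean of 3 libraries as a line, in control (grey) and 25(OH)D (blue). The points run from ZNF725P, with a log2 fold change of -1.59, to ZNF44, with 0.57, and groups without overlap were part of the rule that chose these genes.

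Outside these clusters the clearest fall was in ZNF274, whose product is known to bring SETDB1 and TRIM28 to the 3′ ends of zinc finger genes. It was at 47.3, 48.9 and 47.1 CPM in control and at 35.5, 35.0 and 33.6 CPM in 25(OH)D. All 25(OH)D libraries were far below the controls, and the spread within each group was small. The log2 fold change was -0.46 ± 0.06 (SE, n = 3 per group) with an adjusted p of 1.47e-05 in edgeR's quasi-likelihood test, the smallest of all members. In the same cluster ZNF304, known as a repressor of the INK4-ARF locus in colorectal cancer, had a log2 fold change of -0.22 with no overlap and an adjusted p of 0.0691, and passed the test with upper-quartile factors (adjusted p 0.0331) and library sizes alone (0.0319). ZNF580, a small zinc finger protein without a KRAB domain, was at 7.26 ± 0.234 RPKM in control and 7.69 ± 0.691 RPKM in 25(OH)D (SD, n = 3, adjusted p 0.256).

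At chr19:36182060-37817300, ZNF829 was at 11.7, 9.78 and 11.9 CPM in control and at 7.02, 6.29 and 6.87 CPM in 25(OH)D, with no overlap. Its log2 fold change was -0.73 ± 0.11 (SE, n = 3 per group) with an adjusted p of 1.23e-04 in edgeR's quasi-likelihood test, and it shares no exon bases with another listed gene. ZNF568, known in the mouse as a repressor of a placental Igf2 transcript, and ZNF382, a KRAB repressor known to be silenced by methylation in several cancers, were fitted at -0.13 and 0.03 and did not pass the test (adjusted p 0.306 and 0.915). ZNF146, which consists of zinc fingers only, was by far the most abundant member per length, at 29.8 ± 0.867 RPKM in control and 26.1 ± 0.595 RPKM in 25(OH)D (SD, n = 3), and fell by 0.15 on the log2 scale (adjusted p 0.0178).

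At chr19:43525497-45076588 members were called in both directions. ZNF224, a repressor known to act with the tumour suppressor WT1, was at 44.6, 48.5 and 53.5 CPM in control and at 58.0, 56.2 and 55.1 CPM in 25(OH)D. The groups were apart by a narrow margin, and the log2 fold change was 0.21 ± 0.07 (SE, n = 3 per group) with an adjusted p of 0.0235 in edgeR's quasi-likelihood test. ZNF224 shares 4944 exon bases with AC084219.4 on the other strand. ZNF222 fell by 0.55 on the log2 scale (adjusted p 0.00589) and ZNF226 by 0.27 (adjusted p 0.00208). ZNF226 was at 34.4 ± 0.324 CPM in control and 28.5 ± 0.152 CPM in 25(OH)D (SD, n = 3), whereas ZNF222, at 5.55 ± 0.565 and 3.79 ± 0.133 CPM, shares 1232 exon bases with AC084219.2.

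In the remaining clusters ZNF358 went from 3.21 ± 0.547 to 1.97 ± 0.386 CPM (SD, n = 3, log2 fold change -0.70, adjusted p 0.0160), ZNF266 from 13.4 ± 1.77 to 10.3 ± 0.398 CPM (-0.38, adjusted p 0.0105) and ZNF30 from 12.4 ± 0.653 to 9.31 ± 1.53 CPM (-0.42, adjusted p 0.0111), by edgeR's quasi-likelihood test. ZNF358 shares 1480 exon bases with CTD-2207O23.12 on the same strand. In all 3 genes the groups did not overlap.

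Members often share sequence or exons with other genes, which bears on their counts. In all, 131 of the 251 share exon bases with another listed gene, 80 of them on the same strand, and 31 have 10% or more of their 100-base stretches in another gene. Among the 93 tested members that share no exon base, 22 fell and 1 rose, with a median log2 fold change of -0.19. These were shares of 23.7% and 1.08%, against 16.5% and 17.3% of all genes tested. Of the 122 tested members that share exon bases, 21 fell (17.2%) and 4 rose (3.28%), with a median of -0.14. Of the 43 falls, 22 passed the test in every one of the 16 alternative fits, among them ZNF274, ZNF90, ZNF829, ZNF649 and ZNF725P, and of the 5 rises 2 did, ZNF44 and ZNF799. Of the 16 alternative fits, ZNF224 passed the test in 8, ZNF468 in 9 and ZNF823 in 14. With upper-quartile factors or library sizes alone, ZNF224 and ZNF468 no longer passed it. The count of rises was 2 without the second control library, which ended the calls of ZNF224, ZNF468 and ZNF823, and 3 without the third 25(OH)D library, which ended those of ZNF468 and ZNF823. Among the named falls, leaving out at least 1 of the libraries ended the calls of ZNF146, ZNF627, ZNF66, ZNF726, ZNF358, ZNF266 and ZNF30, although each remained below 0 and the highest adjusted p in edgeR, that of ZNF726, was 0.111.

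The promoters of the members were less rich in G and C than those of other genes, with a median of 60.7% over 185 entries against 65% over 10472 tested genes with an entry. Other letters were set without reading the sequences and were searched on both strands. CACGTG, the E-box, stood in 4.86% of member promoters, 10% of those of tested genes and 7.26% of the table. TATAAA stood in 2.7% of member promoters, 5.75% of those of tested genes and 11.5% of the table. The palindromic CGCG element stood in 2 member promoters (1.08%), 0.888% of those of tested genes and 0.424% of the table. Direct repeats of the nuclear receptor letters AGGTCA and of GGTTCA with 3 free bases between them, the spacing that VDR is known to prefer, stood in 0 of 185 member promoters and each in 0.0057% of the table, and no match says only that these letters are not in these 300 bases.

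Of the partners through which KRAB zinc finger proteins silence their targets, 38 were tested, of which 18 fell (47.4%) and 1 rose (2.63%), with a median log2 fold change of -0.13. They were abundant genes, and of all genes with a mean of 500 counts or more 24.2% fell and 25.9% rose. The partners had a median of 3436 mean counts and that class 1665, so the class matches them only in part. TRIM28 itself, which lies on chromosome 19, was at 72.2, 67.6 and 68.5 CPM in control and at 57.9, 56.0 and 57.9 CPM in 25(OH)D, with no overlap. Its log2 fold change was -0.28 ± 0.05 (SE, n = 3 per group) with an adjusted p of 5.48e-04 in edgeR's quasi-likelihood test. SETDB1 was at 49.6 ± 2.94 CPM in control and 48.6 ± 3.21 CPM in 25(OH)D (SD, n = 3) and did not pass the test (log2 fold change -0.03, adjusted p 0.764).

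The other partners moved in part. The smallest p among falls was that of UHRF1, which guides the upkeep of DNA methylation, with 348 ± 7.48 CPM in control and 263 ± 10.1 CPM in 25(OH)D (SD, n = 3, log2 fold change -0.41, adjusted p 1.79e-06). The single rise was in TRIM24, a cofactor of nuclear receptors, with 30.5 ± 0.951 and 41.2 ± 2.45 CPM (0.43, adjusted p 9.21e-05), by edgeR's quasi-likelihood test. Without the second 25(OH)D library 11 partners fell and 1 rose. Of 16 other C2H2 zinc finger genes of the chromosome, named ZFP, ZSCAN, ZIM, ZIK or PEG, 5 were tested and 0 passed the edgeR test, with 0 at an unadjusted p under 0.05 and 0 by DESeq2.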

How the data were processed

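The 6 mRNA libraries of MDA-MB-453 cells were grouped by their labels. The authors deposited whole-number counts per gene, without normalization, and RPKM values, which equalled each deposited count divided by gene length and library total (largest relative difference 2.23e-13). The submitters' processing notes name Trimmomatic 0.36, featureCounts, Subread 1.5.1, edgeR 3.12.1 and GRCh38, whereas the aligner, the annotation release and the strand setting of the counting are not given in the sources used here. Reads that fit several family members may have been lost or shared, which affects similar genes.

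The counts were fitted in edgeR 4.0.16 (R 4.3.3) with TMM factors and no covariate, and compared by its quasi-likelihood test. The package's low-count filter, with its minimum of 10 counts, left 18183 genes, over which p-values were adjusted by the Benjamini-Hochberg method. The coefficient of biological variation was 0.0788. Tested on simulated data for 17876 genes, the fit recovered 52 of 100 genes changed by 1.5-fold and 77 of 100 changed by 2-fold, and called 16 unchanged genes. Totals of 33268860 to 40928176 counts limited precision for weakly expressed members. Alternatives used limma 3.58.1 on log2(RPKM + 1) or log2(RPKM + 0.1) and DESeq2 1.42.0. Shared exons came from the count table, shared transcript stretches from GENCODE 29 and promoters from RefSeq, which held 208 of the 251 members and 185 of the 215 tested. Remaining steps used Python 3.11.15.

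The members and lists were chosen with earlier results of these data known. Named genes were first taken among called members whose groups did not overlap and whose higher group averaged 100 counts or more. Up to 12 rises and 12 falls of the largest size were taken, and all 5 called rises were included because there were no more. Further named genes were the smallest p in each direction in clusters with at least 5 tested members, the 6 highest RPKM values and 8 members with known roles. TRIM28, SETDB1 and the smallest p in each direction of each other list were added. Protein sequences were not used here.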

Additional observations from a re-analysis of the deposited data

How the results depend on the processing

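The count of falls stayed within 1.5 times of 43 in all 16 refits, at 41 with DESeq2 and 58 with upper-quartile factors or library sizes alone, and between 32 and 38 when a library was left out. The count of rises was 3 with upper-quartile factors, with library sizes alone and with limma on log2(RPKM + 1) or log2(RPKM + 0.1), and 2 to 4 when a library was left out. At an adjusted p under 0.01 there were 23 falls and 2 rises, and at an absolute log2 fold change over 1 with an unadjusted p under 0.05 there were 1 fall and 0 rises. Without members that share exon bases there were 22 falls and 1 rise among 93 tested members (23.7% and 1.08%). Without members with 10% or more of their 100-base stretches elsewhere there were 41 falls and 3 rises among 188. The median log2 fold change of the members was -0.20 with upper-quartile factors and with library sizes alone, -0.10 and -0.18 with 1 and 0.1 added to RPKM, -0.19 and -0.18 without the members that share exon bases or stretches, and -0.160 to -0.133 when a library was left out. The median of all genes was -0.05 with upper-quartile factors, -0.06 with library sizes alone, and -0.03 and -0.05 with 1 and 0.1 added to RPKM. The median of the members minus that of all genes was -0.147, -0.146, -0.071 and -0.132 in these 4 settings. The silencing partners had 11 to 17 falls when a library was left out. Clusters split at 2 Mb numbered 8, and those at chr19:51571298-53580269 and chr19:55476332-58481230 were then joined. Calls per cluster were counted only with the 1 Mb split, so the shares of falls by cluster hold for that split alone. The causes of the shifts in counts and medians were not tested.

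Same-numbered libraries did not deviate together, with correlations of -0.072, -0.012 and -0.046, so the numbers were not taken as pairs. With the replicate number as a block there were 41 falls, 40 of them shared, and 5 rises. Of 608 refitted values of 38 named genes, 554 kept their direction and their side of the threshold, 37 lost it, 5 gained it (ZNF91 in 3 fits and ZNF304 in 2) and 12 changed sign, all in genes that were not called. ZNF382 changed to -0.016 with upper-quartile factors, -0.018 with library sizes alone and -0.0058 and -0.0077 with 1 and 0.1 added to RPKM, with a range of -0.054 to 0.21 when a library was left out. ZNF331 changed to -0.0017 and -0.0038 with RPKM, and SETDB1 ranged from -0.074 to 0.017 when a library was left out. Leaving out the second control library removed the calls of ZNF224, ZNF468 and ZNF823. Low counts limit what can be said of the 36 untested members and the 39 under 100 counts, and whether depth or weak expression accounts for them was not tested.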
